A study of Mus musculus with 15 samples.

Results

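The comparison is between the brains of mice that carry 1 mutant copy of Tbx1 and the brains of wild types, all given saline. It covers 10 of the 15 libraries of the series: 5 Tbx1 heterozygotes (Tbx1+/-, Het_PBS 1 to 5) and 5 wild types (WT_PBS 1 to 5), assigned by the genotype and treatment in the sample labels. Every gene with enough reads to be tested was compared, 11718 in all. Both groups had phosphate-buffered saline (PBS) by intraperitoneal injection, 2 times a week for 4 weeks from 4 weeks of age. Neither had the vitamin B12 given to the other 5 libraries of the series, all from heterozygotes. Those 5 entered the gene filter, the scaling and the estimate of the spread, but were not a side of the comparison. With the 10 saline libraries alone, 11089 genes were tested. RNA came from tissue labelled as brain hemisphere in the sample records and as whole brain in the design text. Libraries were made from polyadenylated RNA with QuantSeq, which reads the 3′ end of each transcript, so that a count follows the number of transcripts and not their length. The part of Tbx1 that the mutant allele lacks, the strain and any batch are not stated in the labels. The labels do not state outright that each library is a separate mouse, and 1 animal number stands on both Het_PBS 5 and a vitamin-treated library. The p-values therefore rest on the spread from library to library, which may be technical.

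Tbx1 encodes a transcription factor of the T-box family, which binds DNA through a T-box domain and acts as an activator or repressor of its targets. The gene lies in the region that is deleted on 1 chromosome in DiGeorge (velocardiofacial) syndrome, and loss of 1 copy in mice gives defects of the pharyngeal arch arteries. In the brain Tbx1 is known mainly for its activity in endothelial cells, where it acts on the VEGF receptor and Notch pathways during vessel growth. The comparison asks what the loss of 1 copy leaves in the adult brain transcriptome.

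Totals of the 10 libraries ran from 1683258 (Het_PBS 5) to 2645833 (Het_PBS 2) counts, and neither totals nor the number of genes with a read differed beyond the spread (exact permutation test, two-sided, p = 0.833 and 0.476). At these totals 3 reads, the detection floor used here, equal 1.13 to 1.78 CPM, the unit of counts scaled to library size that is used throughout. Xist, the RNA of the inactive X chromosome, had 28 reads in Het_PBS 3 and 0 in the other 9 libraries, while each of the 10 libraries had reads of the Y-linked genes Eif2s3y, Uty, Kdm5d and Ddx3y. The summed level of these 4 genes was 116 CPM in Het_PBS 3 and 120.4 to 164 CPM in the others. Het_PBS 3 therefore went against the other 9 libraries in Xist, and values for the globins, Gpx3 and several gene lists are given with and without it. On the first principal component, 20.1% of the variance of 2000 genes, WT_PBS 3 stood at 33.5 and Het_PBS 5 at -28.9, and the other 8 libraries lay between -3.47 and 2.12. The pair of WT_PBS 3 and Het_PBS 5 was therefore also left out together.

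No gene passed the test. At a Benjamini-Hochberg adjusted p under 0.05 in edgeR's quasi-likelihood test, 0 of 11718 genes (0%) were called, and the smallest adjusted p was 0.125, shared by the beta-globin genes Hbb-bt and Hbb-bs. DESeq2 and limma-voom with quality weights also called 0. At an unadjusted p under 0.05 there were 879 genes (7.5%): 451 with a higher level in Het_PBS (3.85%) and 428 with a lower level (3.65%). The 5 heterozygous libraries lay wholly above the 5 wild types for 46 genes (0.393%) and wholly below them for 52 genes (0.444%). The median log2 fold change, Het_PBS over WT_PBS, was -0.01 over all genes, and the median size of a fold change, disregarding its sign, was 0.16.

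**Figure D1:**
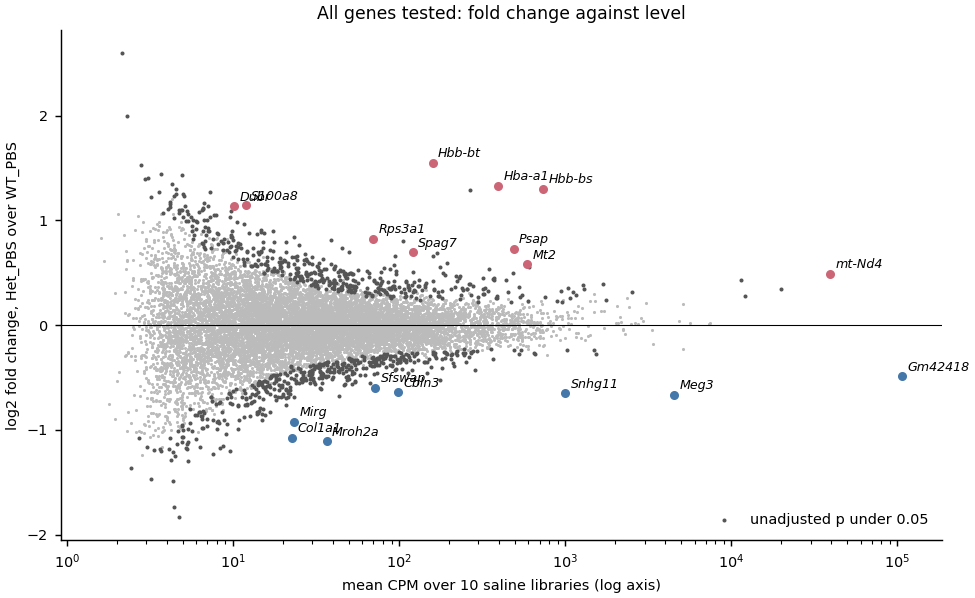
Log2 fold change of each of the 11718 tested genes (vertical axis, Het_PBS over WT_PBS) against its mean CPM over the 10 saline libraries (horizontal log axis). Dark points have an unadjusted p under 0.05; the globin genes stand highest among genes above 100 CPM, and Mroh2a (-1.11) is among the labelled genes on the lower side.

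The depth sets how much this result bounds. For 9244 genes (78.9%) the 95% interval of the fold change lay within a 2-fold difference in either direction, and for 5352 (45.7%) within 1.5-fold. Among 1881 genes with a mean of at least 100 CPM, 94.2% were bounded within 1.5-fold, with a median half-width of 0.24 on the log2 scale. Among 1000 genes under 5 CPM, only 5.1% were bounded within 2-fold, and the median half-width was 1.02. Differences of 2-fold in weakly expressed genes were therefore often not detectable at this depth. On simulated counts for these groups and libraries, over 11453 genes, the same test recovered 65% of 2-fold changes and 26% of 1.5-fold changes. In the simulation 200 genes were changed and counts were drawn independently for each gene and library. No simulated library stood apart over many genes, as WT_PBS 3 and Het_PBS 5 did here, so these shares describe the simulated counts only.

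Tbx1 itself was close to the detection limit in both groups. The gene (ENSMUSG00000009097, chr16:18580979-18590671, minus strand, GRCm38) had 3 reads in WT_PBS 4, 3 reads in Het_PBS 1 and 0 in the other 8 libraries. A count of 0 allows a level of up to 1.13 to 1.78 CPM, depending on the library, so the genotype labels could be neither supported nor contradicted from the Tbx1 reads. Of 17 T-box genes with an entry in the counts only Tbr1, Eomes and Mga had enough reads to be tested. Tbr1, a factor of cortical projection neurons, stood at 31.3 to 63.7 CPM in WT_PBS and 44.01 to 66.4 CPM in Het_PBS, with a log2 fold change of 0.09 ± 0.17 (SE, adjusted p = 0.951). Mga, which pairs with Max, had 0.07 ± 0.12 (SE, adjusted p = 0.932).

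The genes around Tbx1 showed no step at the locus. Within 250 kb of Tbx1 there were 8 tested genes with a median log2 fold change of 0.08, none with an unadjusted p under 0.05. Within 500 kb 1 of 16 genes had such a p, within 1000 kb 2 of 25 (median -0.06), and within 2000 kb 4 of 52 (7.69%), beside 7.5% over all genes. Within 5000 kb it was 11 of 95 (11.6%) and within 10000 kb 13 of 126 (10.3%), both above that background share, with medians of -0.04 and -0.03. Of 28 tested mouse counterparts of genes in the human 22q11.2 region, 8 lay above 0 and 20 below, with a median of -0.07. All 28 are described by their intervals: 26 were bounded within 2-fold and 17 within 1.5-fold.

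Dgcr8, the RNA-binding partner of Drosha in microRNA maturation, had the smallest p of these genes. It stood at 19.7, 38.8, 32.1, 34.6 and 23.8 CPM in WT_PBS 1 to 5 and 13.6, 26.3, 14.2, 21.1 and 25.7 CPM in Het_PBS 1 to 5. The groups overlapped, and the log2 fold change was -0.56 ± 0.22 (SE, adjusted p = 0.577). With Het_PBS 1 and Het_PBS 3, its lowest libraries, both left out it was -0.28. Trmt2a, a gene on the opposite strand, overlaps Dgcr8, and with no strand setting stated in the labels reads of the 2 genes cannot be told apart. Trmt2a itself had -0.04 ± 0.27.

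Rtn4r, the Nogo receptor of neurons, had -0.37 ± 0.20 (SE, adjusted p = 0.7), and its lowest value, 13.2 CPM, was in Het_PBS 5. Lztr1, an adaptor for RAS degradation, had 0.30 ± 0.15 (SE, adjusted p = 0.66). Prodh, the first enzyme of proline breakdown, had -0.25 ± 0.34, and Slc25a1, the mitochondrial citrate carrier, -0.22 ± 0.20. Values close to 0 belonged to Hira, a histone chaperone (-0.01 ± 0.21), Ranbp1, a Ran-binding protein (-0.01 ± 0.16), Txnrd2, the mitochondrial thioredoxin reductase (0.02 ± 0.28), and Pi4ka, a phosphatidylinositol kinase (-0.03 ± 0.12). Cldn5, the tight-junction claudin of brain endothelium, had a log2 fold change of 0.08 ± 0.39, a value too wide to bound within 1.5-fold.

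**Figure D2:**
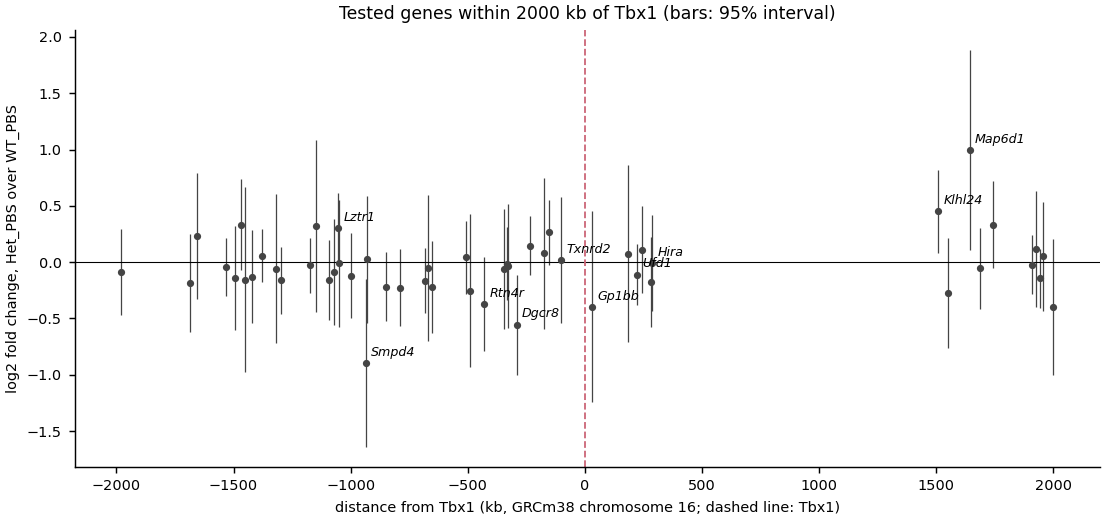
Log2 fold change, Het_PBS over WT_PBS, of the 52 tested genes within 2000 kb of Tbx1 (vertical axis; bars are 95% intervals) against their distance from Tbx1 in kb (horizontal axis; the dashed line is Tbx1). Intervals of the genes nearest to Tbx1 all span 0; those of Dgcr8, Smpd4, Klhl24 and Map6d1, farther out, do not.

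Outside the listed genes, Smpd4, a neutral sphingomyelinase, stood at 6.16 to 14.02 CPM in WT_PBS and 2.59 to 7.57 CPM in Het_PBS, with -0.90 ± 0.37 (SE, adjusted p = 0.594). Map6d1, a microtubule-binding protein relative, had 1.00 ± 0.44 (SE, adjusted p = 0.608), and Klhl24, an adaptor for ubiquitin ligases, 0.45 ± 0.18 (SE, adjusted p = 0.589). None of these passed the test.

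The globin genes gave the smallest p-values. Haemoglobin is made in red cell precursors, and its messenger RNA persists in reticulocytes, so that its level in brain RNA follows the blood left in the tissue as well as any expression by brain cells. Hbb-bt (ENSMUSG00000073940, chr7:103812524-103813996, minus strand), an adult beta-globin, stood at 65.7, 119, 45.6, 67.1 and 107 CPM in WT_PBS 1 to 5 and 279, 79.2, 574, 106 and 144 CPM in Het_PBS 1 to 5. Het_PBS 1, 3 and 5 stood above all wild types, while Het_PBS 2 and Het_PBS 4 lay within the wild-type range. The log2 fold change was 1.55 ± 0.31 (SE, adjusted p = 0.125), with a 95% interval of 0.92 to 2.17. That interval rests on a spread estimated over all 15 libraries, whereas the SD was 204 CPM in Het_PBS and 30.9 CPM in WT_PBS. It may therefore be too narrow for Het_PBS: with Het_PBS 1 and Het_PBS 3 left out the value was 0.44, outside the interval. The SE of the other globins rests on the spread of the same 15 libraries.

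Hbb-bs (ENSMUSG00000052305, chr7:103826534-103828096, minus strand), the other adult beta-globin, stood at 371, 606, 237, 332 and 578 CPM in WT_PBS 1 to 5 and 1341, 391, 2176, 586 and 745 CPM in Het_PBS 1 to 5. Its order over libraries was alike, and the log2 fold change was 1.30 ± 0.27 (SE, adjusted p = 0.125). For the alpha-globins only Het_PBS 1 and 3 stood above all wild types. Hba-a1 (chr11:32283511-32284465, plus strand) stood at 190.5, 293, 106, 187 and 344 CPM in WT_PBS 1 to 5 and 703, 180.0, 1334, 282 and 319.9 CPM in Het_PBS 1 to 5, with 1.33 ± 0.31 (SE, adjusted p = 0.226). Hba-a2 (chr11:32296489-32297298, plus strand) stood at 115, 194, 97, 115 and 252 CPM in WT_PBS 1 to 5 and 459, 125, 881, 202 and 222 CPM in Het_PBS 1 to 5, with 1.29 ± 0.30 (SE, adjusted p = 0.226).

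These 4 values rested largely on Het_PBS 1 and Het_PBS 3. Without Het_PBS 3, the library with Xist reads, the log2 fold changes were 0.91 for Hbb-bt, 0.85 for Hbb-bs, 0.72 for Hba-a1 and 0.70 for Hba-a2. With Het_PBS 1 and Het_PBS 3 both left out they were 0.44, 0.44, 0.22 and 0.24. Calls appeared for Hbb-bt and Hbb-bs when WT_PBS 2, Het_PBS 2, Het_PBS 4 or Het_PBS 5 was left out, with adjusted p from 0.00191 to 0.0396. WT_PBS 2 was the highest wild type for both genes, and Het_PBS 2, 4 and 5 were the lowest heterozygotes. Leaving out any of these widens the difference, and the adjusted p does not allow for that choice. Hba-a1 and Hba-a2 were also called without Het_PBS 2 (both adjusted p = 0.0106). With 1 surrogate variable Hbb-bt was called (1.56, adjusted p = 0.0331), and with no filter on low counts all 4 globins were among the 40 calls, at fold changes of 1.30 to 1.56. Their adjusted p in the unfiltered fit ran from 2.56e-28 to 2.94e-23, where nearly the same fold changes gave 0.125 to 0.226 with the filter. Why p moved so far was not tested, and the unfiltered calls are not taken as added support. Over all haemoglobin reads the share of the library was 0.0696, 0.112, 0.0487, 0.0678 and 0.123 in WT_PBS 1 to 5 and 0.271, 0.0735, 0.484, 0.111 and 0.142 in Het_PBS 1 to 5, in percent.

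Of 12 red cell genes 9 were tested, and all 9 lay above 0, with a median log2 fold change of 0.82. The 4 globins were the only ones with an unadjusted p under 0.05 (44.4%, beside 7.5% over all genes). Without Het_PBS 3, 7 of 9 lay above 0, with a median of 0.26, and without WT_PBS 5 the median was 1.44. Alas2, the first enzyme of haem synthesis in red cell precursors, had 0.82 ± 0.56 (SE, adjusted p = 0.782), and its highest levels, 25.9 and 15.9 CPM, were in Het_PBS 3 and WT_PBS 5. All 4 tested leukocyte genes lay above 0 (median 0.47), but without WT_PBS 3 and Het_PBS 5, their lowest and highest libraries, 2 of 4 did (median 0.03). Among them S100a8, a calgranulin of neutrophils, stood at 13.6, 4.05, 0, 7.09 and 10.9 CPM in WT_PBS 1 to 5 and 7.02, 9.95, 12.1, 10.7 and 44.2 CPM in Het_PBS 1 to 5. Its value, 1.14 ± 0.47 (SE, adjusted p = 0.594), became 0.44 without Het_PBS 5.

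The promoters of the 4 globin genes are shown because these genes varied together over libraries. RefSeq windows (GRCm38.p6) run from 250 bases before to 50 after the start and are printed 5′ to 3′ on the strand of the gene. Capitals mark the CCAAT motif (CCAAT or ATTGG on this strand) and ACACCC, a longer string that holds the CACCC motif. CACCC without the leading A is not marked.
Hbb-bt, chr7:103813874-103814173, minus strand: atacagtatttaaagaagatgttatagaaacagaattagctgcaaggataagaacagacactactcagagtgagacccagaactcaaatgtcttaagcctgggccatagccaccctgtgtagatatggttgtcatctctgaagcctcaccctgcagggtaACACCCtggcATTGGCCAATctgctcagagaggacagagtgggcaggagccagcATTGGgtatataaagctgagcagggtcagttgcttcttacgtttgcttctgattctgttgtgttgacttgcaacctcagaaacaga
Hbb-bs, chr7:103827879-103828178, minus strand: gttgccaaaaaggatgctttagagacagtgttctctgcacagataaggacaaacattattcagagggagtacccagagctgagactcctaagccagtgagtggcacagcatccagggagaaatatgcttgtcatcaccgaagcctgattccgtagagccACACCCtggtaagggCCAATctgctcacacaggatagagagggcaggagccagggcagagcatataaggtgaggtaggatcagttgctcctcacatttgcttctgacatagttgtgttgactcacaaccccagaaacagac
Hba-a1, chr11:32283422-32283721, plus strand: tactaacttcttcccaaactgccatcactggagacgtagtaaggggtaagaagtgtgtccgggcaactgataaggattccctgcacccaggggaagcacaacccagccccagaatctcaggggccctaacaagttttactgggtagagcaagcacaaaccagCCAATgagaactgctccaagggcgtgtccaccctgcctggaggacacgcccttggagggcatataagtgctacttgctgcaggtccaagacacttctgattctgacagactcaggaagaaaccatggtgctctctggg
Hba-a2, chr11:32296242-32296541, plus strand: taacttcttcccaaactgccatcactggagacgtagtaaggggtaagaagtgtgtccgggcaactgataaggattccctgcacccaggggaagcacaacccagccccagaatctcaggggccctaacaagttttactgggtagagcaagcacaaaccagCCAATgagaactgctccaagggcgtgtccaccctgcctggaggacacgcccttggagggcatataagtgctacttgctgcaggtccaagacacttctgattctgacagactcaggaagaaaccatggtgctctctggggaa

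CCAAT was present in all 4 windows, and in 41.1% of 27025 genes with such a window when either strand was searched. ACACCC or its complement was present in both beta-globin windows and in neither alpha-globin window, and in 18% of all windows. The shorter CACCC does occur in both alpha-globin windows, so the difference holds for the longer string only. The alpha-globin windows were identical over 297 aligned bases, whereas those of Hbb-bs and Hbb-bt matched at 219 of 293. The last 300 bases of the annotated transcripts, where QuantSeq reads fall, matched at 283 of 284 aligned bases between Hba-a1 and Hba-a2 and at 261 of 297 between Hbb-bs and Hbb-bt. Single counts of Hba-a1 and Hba-a2 are uncertain for that reason. The T-box motif AGGTGTGA (TCACACCT on the other strand) was in none of the windows of the 25 leading genes that had one, where 1.48% of all windows hold it. Its half-site AGGTGT was in 4 of the 25 (Mt2, Mroh2a, Mirg and Snrnp48) and in 15.7% of all windows. A match or its absence describes these letters in this window only.

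**Figure D3:**
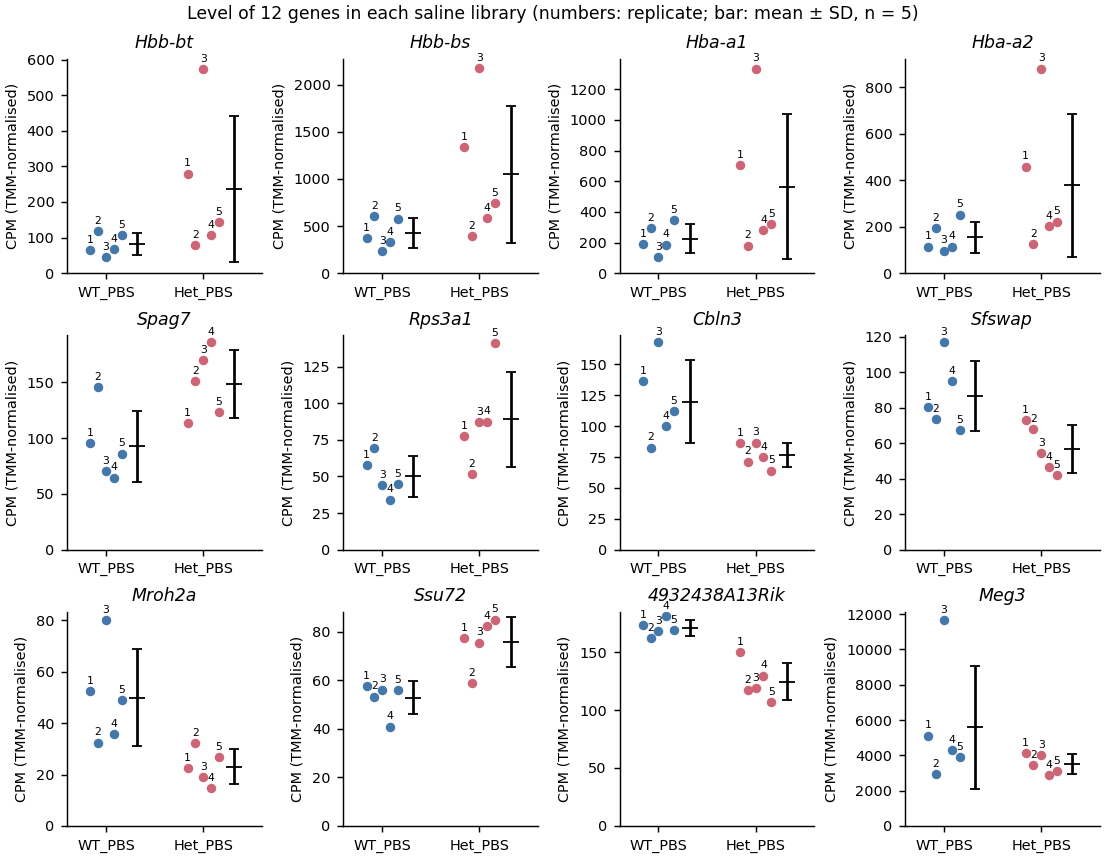
Level of 12 genes in each library (vertical axes, TMM-normalised CPM from 0; points numbered by replicate; bars give the mean ± SD of 5 libraries). The globin means of Het_PBS rest on libraries 1 and 3, the groups do not overlap for Mroh2a, Ssu72 and 4932438A13Rik, and WT_PBS 3 stands alone for Meg3.

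Apart from globins, the higher side was headed by genes of varied function. Spag7, a protein with an R3H nucleic acid-binding domain (chr11:70663771-70669416), stood at 95.3, 146, 70.7, 64.6 and 86.1 CPM in WT_PBS 1 to 5 and 114, 151, 170.0, 186 and 123 CPM in Het_PBS 1 to 5. All heterozygotes lay above 4 of the 5 wild types, and WT_PBS 2 lay among them; the log2 fold change was 0.70 ± 0.16 (SE, adjusted p = 0.226). Without WT_PBS 2 it was 0.91 and was called (adjusted p = 0.000964), and without WT_PBS 4 it was 0.59 and was not. Leaving out the wild type that lay among the heterozygotes widens the difference, and the adjusted p does not allow for that choice. The same applies to the genes below that were called without WT_PBS 2. Rraga, a Rag GTPase that carries amino acid signals to mTORC1, stood at 100.2, 229.6, 137, 92.6 and 91.1 CPM in WT_PBS 1 to 5 and 196, 198, 176, 231 and 241 CPM in Het_PBS 1 to 5. WT_PBS 2 again lay within the heterozygous range, and the value 0.69 ± 0.18 (SE, adjusted p = 0.387) became 0.99, also called (adjusted p = 0.000957), without it. Without WT_PBS 5 the value was 0.58 and was not called.

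Psap, the precursor of the lysosomal saposins, stood at 314, 468, 539, 261 and 257 CPM in WT_PBS 1 to 5 and 501, 461, 619.6, 539 and 922 CPM in Het_PBS 1 to 5, with 0.73 ± 0.19 (SE, adjusted p = 0.387). Cyb5r1, a cytochrome b5 reductase, had 0.81 ± 0.20 (SE, adjusted p = 0.303), with means of 28.7 ± 8.85 CPM in WT_PBS and 49.4 ± 14.7 CPM in Het_PBS (SD, n = 5). Naca, a subunit of the nascent polypeptide-associated complex on the ribosome, had 0.66 ± 0.17 (SE, adjusted p = 0.387). Mt2, a zinc-binding metallothionein, had 0.58 ± 0.15 (SE, adjusted p = 0.442); its highest level was 1158 CPM in Het_PBS 5, and without that library the value was 0.33. The groups did not overlap for Ssu72, a phosphatase of the RNA polymerase II tail, at 57.5, 53.2, 56.1, 40.9 and 55.99 CPM in WT_PBS 1 to 5 and 77.2, 58.9, 75.5, 82.2 and 84.9 CPM in Het_PBS 1 to 5 (log2 fold change 0.52 ± 0.14 SE, adjusted p = 0.442). Dubr, a long non-coding RNA on chromosome 16, also separated the groups, at 4.6 to 8.77 CPM in WT_PBS and 9.83 to 20.2 CPM in Het_PBS, with 1.14 ± 0.31 (SE, adjusted p = 0.444).

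Larger but less certain values came from weakly expressed genes. Mcts2, an imprinted translation factor that lies inside H13 on the same strand, had 0.98 ± 0.32 (SE, adjusted p = 0.524) with no overlap between groups. Ulk3, a kinase of the autophagy family, had 0.96 ± 0.31 (SE, adjusted p = 0.524). Fmod, a small proteoglycan of connective tissue, had 0.90 ± 0.29 (SE, adjusted p = 0.524), and Tyrobp, a signalling adaptor of microglia, 0.90 ± 0.30 (SE, adjusted p = 0.524).

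On the lower side the smallest p belonged to Cbln3, a synaptic organiser of cerebellar granule cells (chr14:55878913-55884392), at 136, 82.7, 168, 100.1 and 112 CPM in WT_PBS 1 to 5 and 86.6, 71.3, 86.7, 74.8 and 63.98 CPM in Het_PBS 1 to 5. Only WT_PBS 2, at 82.7 CPM, lay among the heterozygotes, and the log2 fold change was -0.64 ± 0.15 (SE, adjusted p = 0.226). Without WT_PBS 2 it was -0.74 and was called (adjusted p = 0.0152). Without WT_PBS 3 it was -0.48, and without WT_PBS 3 and Het_PBS 5 it was -0.44, with no call for Cbln3 in either fit. 4932438A13Rik stood at 173, 162, 168, 181 and 169 CPM in WT_PBS 1 to 5 and 149.7, 118, 119, 129.7 and 107 CPM in Het_PBS 1 to 5, a narrow wild-type range above every heterozygote, with -0.45 ± 0.11 (SE, adjusted p = 0.378). Mroh2a, a HEAT-repeat protein (chr1:88226986-88262289), stood at 52.6, 32.4, 80.05, 35.9 and 48.9 CPM in WT_PBS 1 to 5 and 22.5, 32.2, 18.98, 14.9 and 26.9 CPM in Het_PBS 1 to 5, with no overlap and -1.11 ± 0.29 (SE, adjusted p = 0.387).

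Sfswap, a regulator of alternative splicing, had -0.60 ± 0.16 (SE, adjusted p = 0.442), with means of 86.5 ± 19.9 CPM in WT_PBS and 56.7 ± 13.5 CPM in Het_PBS (SD, n = 5). Zfp445, a zinc finger protein that guards genomic imprints, had no overlap (96.1 to 133 CPM in WT_PBS and 74.2 to 85.2 CPM in Het_PBS) and -0.42 ± 0.12 (SE, adjusted p = 0.473). Snrnp48, a protein of the minor spliceosome, did not overlap either and had -0.46 ± 0.13 (SE, adjusted p = 0.473). Emp2, a tetraspan membrane protein, had -0.61 ± 0.18 (SE, adjusted p = 0.473), and Jmjd1c, of the JmjC demethylase family, -0.47 ± 0.14 (SE, adjusted p = 0.473); both were lower in 5 of 5 heterozygotes than in any wild type, although Reep3 overlaps Jmjd1c on the opposite strand.

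Further values on the lower side were those of Tor1b, a torsin ATPase (-0.56 ± 0.15), Spats2 (-0.57 ± 0.16), Vars2, the mitochondrial valyl-tRNA synthetase (-0.86 ± 0.25), and Dchs1, a large protocadherin (-1.15 ± 0.34). Among genes of at least 10 CPM the largest also included Ccne1, cyclin E (-0.99 ± 0.30, no overlap), and Hinfp, a factor of histone H4 transcription (-0.91 ± 0.27, no overlap). Nfrkb, a subunit of the INO80 remodeller (-0.88 ± 0.29), Lsm2, of the ring that binds U6 RNA (-0.90 ± 0.33), Sh2b2, a receptor kinase adaptor (-0.87 ± 0.31), and Cinp, a cell-cycle checkpoint protein (-0.85 ± 0.26), overlapped between groups. Eif4a2, a translation initiation helicase, was named after its values were seen, because leaving out WT_PBS 3 and Het_PBS 5 gave it the only call of that fit, and a fit with 1 surrogate variable also called it. Its level was 228, 219, 92.9, 255 and 239 CPM in WT_PBS 1 to 5 and 152, 116, 127, 136 and 194 CPM in Het_PBS 1 to 5, with -0.52 ± 0.18 (SE, adjusted p = 0.524), and -0.83 without that pair (adjusted p = 0.0120).

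Relative to their size, the medians of most gene lists changed when single libraries were left out. Of 40 list medians, 38 moved by over 1.5 times or changed sign when some 1 saline library was left out, and the exceptions were the mitochondrially encoded and circadian genes. A sign change occurred in 17 lists, whose medians were at most 0.16 in size. A median near 0, such as 0.00121 for sterol and fatty acid synthesis, meets either mark through a small shift.

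Genes of the ribosome and the respiratory chain stood mostly on the higher side. The cytosolic ribosome joins about equal numbers of many small proteins whose messages are short and abundant. Of 82 tested ribosomal protein genes 71 lay above 0, with a median log2 fold change of 0.19 beside -0.01 over all genes. On the higher side 27 had an unadjusted p under 0.05 and on the lower side 0 (32.9%, beside 7.5% over all genes). Rps3a1 stood at 57.9, 69.4, 43.8, 34.2 and 44.7 CPM in WT_PBS 1 to 5 and 77.7, 51.4, 87.2, 87.5 and 141 CPM in Het_PBS 1 to 5, with 0.83 ± 0.19 (SE, adjusted p = 0.226), and Rps23 at 97.7, 108, 68.4, 50.04 and 61.8 CPM in WT_PBS 1 to 5 and 112, 75.2, 122, 139.6 and 225 CPM in Het_PBS 1 to 5, with 0.80 ± 0.22 (SE, adjusted p = 0.444). For both, Het_PBS 5 was the highest and Het_PBS 2 lay within the wild types. Rpl28 had 0.48 ± 0.13 (SE, adjusted p = 0.473). The 2 most abundant, Rplp1 and Rps14, had 0.03 ± 0.10 and 0.13 ± 0.11.

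The mean ribosomal level, as a log2 difference from the wild-type mean, was 0.12, 0.26, -0.26, -0.21 and 0.09 in WT_PBS 1 to 5 and 0.13, 0.06, 0.18, 0.25 and 0.53 in Het_PBS 1 to 5. WT_PBS 3 and 4 were the lowest libraries and Het_PBS 5 the highest. Without WT_PBS 3 and Het_PBS 5, 53 of 82 genes lay above 0, with a median of 0.05, 5 genes with an unadjusted p under 0.05 on the higher side and 1 on the lower. Without Het_PBS 5 alone, 6 genes had such a p on the higher side. Many ribosomal protein genes have near-identical processed copies, which makes single counts uncertain.

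Respiratory complex I takes electrons from NADH, and most of its subunits are nuclear. Of 36 nuclear genes 29 lay above 0 (median 0.13). An unadjusted p under 0.05 belonged to 6 on the higher side and 0 on the lower (16.7%, beside 7.5% over all genes). Ndufb3, an accessory subunit, stood at 136, 244, 175, 91.7 and 133 CPM in WT_PBS 1 to 5 and 200.3, 200.3, 209, 199.9 and 365 CPM in Het_PBS 1 to 5, with 0.59 ± 0.19 (SE, adjusted p = 0.524); without Het_PBS 5 it was 0.39. Ndufv3, of the NADH-binding module, had 0.36 ± 0.12 (SE, adjusted p = 0.524). With WT_PBS 3 and Het_PBS 5 left out, 27 of 36 lay above 0 (median 0.05). The median was 0.08 without WT_PBS 3 and 0.22 without WT_PBS 2.

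In complexes II to V 29 of 40 nuclear genes lay above 0 (median 0.11). An unadjusted p under 0.05 belonged to 8 on the higher side and 0 on the lower (20%, beside 7.5% over all genes). Cox8a, a subunit of cytochrome oxidase, stood at 364, 631, 413, 282 and 314 CPM in WT_PBS 1 to 5 and 575, 474, 505, 565 and 709 CPM in Het_PBS 1 to 5, with 0.50 ± 0.15 (SE, adjusted p = 0.473), and was called without WT_PBS 2 (0.72, adjusted p = 0.00643). Without WT_PBS 4 its value was 0.40, with no call. Cox6b1, of the same complex, had 0.43 ± 0.13 (SE, adjusted p = 0.473), and Atp5j, of ATP synthase, 0.70 ± 0.23 (SE, adjusted p = 0.524). The median was 0.01 without WT_PBS 3 and Het_PBS 5.

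The mitochondrial genome encodes 13 of these proteins, and 9 of the 10 tested lay above 0, with a median of 0.30. Of the 10, 6 had an unadjusted p under 0.05 (60%, beside 7.5% over all genes). mt-Nd4 stood at 26000, 47340, 30610, 27170 and 32860 CPM in WT_PBS 1 to 5 and 31630, 46370, 51790, 59660 and 40990 CPM in Het_PBS 1 to 5, with 0.49 ± 0.13 (SE, adjusted p = 0.444). mt-Cytb, the core of complex III, had 0.43 ± 0.13 (SE, adjusted p = 0.473). WT_PBS 2 was the wild type nearest to the heterozygotes: without it mt-Nd4 was called at 0.66 (adjusted p = 0.00643) and mt-Cytb at 0.59 (adjusted p = 0.00840). Without Het_PBS 4 mt-Nd4 was 0.38, and without Het_PBS 5 mt-Cytb was 0.34, neither called. The list median was 0.20 without WT_PBS 3 and Het_PBS 5. The share of all counts from mitochondrial protein genes was 6.32, 9.58, 6.49, 7.06 and 6.99 in WT_PBS 1 to 5 and 7.82, 9.28, 10.2, 11.4 and 10.02 in Het_PBS 1 to 5, in percent.

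**Figure D4:**
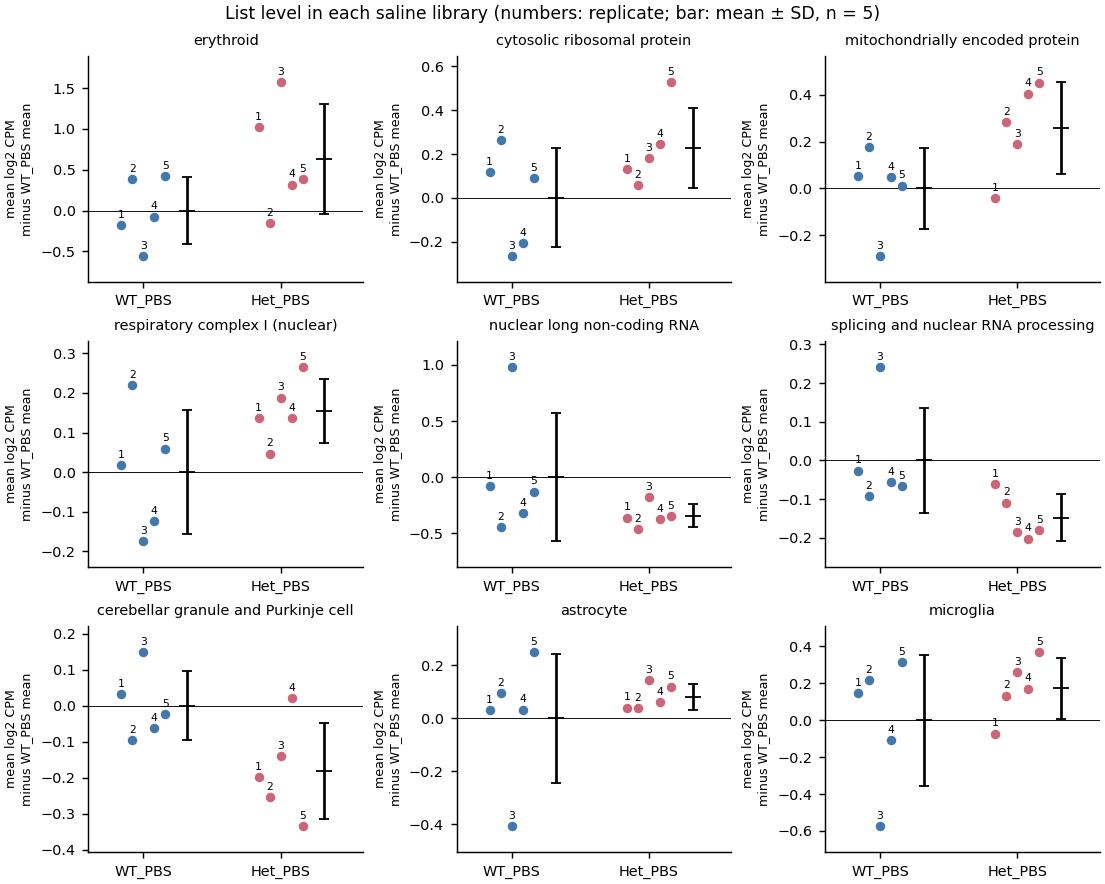
Mean log2 level of 9 gene lists in each library, as a difference from the mean of the 5 WT_PBS libraries (vertical axes; points numbered by replicate; bars give the mean ± SD of 5 libraries). WT_PBS 3 is the lowest wild type for ribosomal, respiratory, astrocyte and microglial genes and the highest for nuclear non-coding RNA, splicing and cerebellar genes.

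Gm42418, a predicted RNA whose sequence overlaps the ribosomal RNA repeat, was the largest single source of counts. Its share was 14.9, 11.9, 10.7, 10.6 and 11.1 in WT_PBS 1 to 5 and 10.2, 10.3, 7.15, 8.51 and 6.47 in Het_PBS 1 to 5, in percent, with no overlap between groups on this scale. On the TMM scale Het_PBS 2 and WT_PBS 3 overlapped, and the log2 fold change was -0.49 ± 0.14 (SE, adjusted p = 0.473). The mitochondrial share stood in the other direction, and WT_PBS 2 lay above Het_PBS 1 and Het_PBS 2. Leaving out Gm42418 and the mitochondrial genes left 0 calls and a ribosomal median of 0.19.

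Nuclear long non-coding RNA stood on the lower side, and that rested on 1 wild type. Of 8 tested RNAs all lay below 0, with a median of -0.55, and 5 had an unadjusted p under 0.05 (62.5%, beside 7.5% over all genes). Meg3, an imprinted RNA of neurons, stood at 5112, 2921, 11650, 4313 and 3891 CPM in WT_PBS 1 to 5 and 4129, 3465, 3991, 2876 and 3102 CPM in Het_PBS 1 to 5, where WT_PBS 3 had more than any other library; the value was -0.67 ± 0.20 (SE, adjusted p = 0.473), and -0.20 without WT_PBS 3. Snhg11, a neuronal host of small nucleolar RNA, had -0.65 ± 0.23 (SE, adjusted p = 0.524) and -0.06 without WT_PBS 3. Mirg, from the same imprinted cluster as Meg3, had -0.92 ± 0.25 (SE, adjusted p = 0.444) and -0.52 without it. Miat (-0.68 ± 0.30) became 0.01 and Neat1, the scaffold of paraspeckles (-0.46 ± 0.22), -0.13. Malat1, an RNA of nuclear speckles and the most abundant of the list, had -0.22 ± 0.16. Without WT_PBS 3 the list median was -0.09, with 5 of 8 below 0.

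Splicing genes gave a smaller shift in the same direction. Of 32 tested 27 lay below 0 (median -0.15). An unadjusted p under 0.05 belonged to 4 on the lower side and 0 on the higher (12.5%, beside 7.5% over all genes). Clk1, a kinase of SR splicing proteins, did not overlap between groups, at 66.1, 62.5, 87.1, 65.9 and 64.8 CPM in WT_PBS 1 to 5 and 51.5, 60.5, 58.2, 50.8 and 36.5 CPM in Het_PBS 1 to 5, with -0.41 ± 0.15 (SE, adjusted p = 0.526). Pnisr, an SR-rich nuclear protein, had -0.43 ± 0.16 (SE, adjusted p = 0.538) and -0.16 without WT_PBS 3, and Rbm5 had -0.36 ± 0.15 and -0.18. Luc7l3 and Srrm2, among the most abundant, had -0.19 ± 0.10 and -0.20 ± 0.12. With that library and Het_PBS 5 left out, 26 of 32 lay below 0, with a median of -0.07. The median was -0.05 without WT_PBS 3 alone.

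Fold changes also differed with transcript length. In the shortest of 5 equal classes by transcript length (median 1509 bases) the median fold change was 0.04, with 164 genes at an unadjusted p under 0.05 on the higher side and 51 on the lower. In the longest class (median 7234 bases) the median was -0.06, with 50 higher and 127 lower. With a transcript length offset in the fit the ribosomal median was 0.12 and the complex I median 0.08. The part of length, library and genotype in these lists was not tested.

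Cerebellar genes lay mostly below 0. Of 21 tested genes of granule and Purkinje cells 16 did so (median -0.15). An unadjusted p under 0.05 belonged to 4 on the lower side and 0 on the higher (19.05%, beside 7.5% over all genes). Among these were Cbln3, Gabra6, a GABA receptor subunit of granule cells, and Neurod1, a granule cell factor. Gabra6 stood at 24.6, 26.6, 36.2, 27.1 and 22.6 CPM in WT_PBS 1 to 5 and 24.8, 14.7, 15.1, 23.1 and 17.9 CPM in Het_PBS 1 to 5, with -0.51 ± 0.21 (SE, adjusted p = 0.59), and Neurod1 at 48.4 to 95.2 CPM in WT_PBS and 48.6 to 71.6 CPM in Het_PBS, with -0.38 ± 0.16 (SE, adjusted p = 0.594). The most abundant members, Itpr1 and Pvalb, had 0.02 ± 0.11 and 0.09 ± 0.12. The mean level was 0.03, -0.09, 0.15, -0.06 and -0.02 in WT_PBS 1 to 5 and -0.20, -0.25, -0.14, 0.02 and -0.33 in Het_PBS 1 to 5, so that only Het_PBS 4 lay within the wild-type range. Without WT_PBS 3 and Het_PBS 5, 18 of 21 lay below 0, with a median of -0.10. Leaving out single heterozygotes gave a median of -0.24 without Het_PBS 4 and -0.10 without Het_PBS 1. In bulk tissue fewer cells of a type and less RNA per cell cannot be told apart, and the labels do not give the amount of cerebellum in each sample.

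Forebrain lists were closer to the median of all genes. Of 16 genes of cortical and hippocampal excitatory neurons 9 lay above 0 (median 0.01), none with an unadjusted p under 0.05. Nrgn, a calmodulin-binding protein that marks the labelled tissue, stood at 6270 to 8675 CPM in WT_PBS and 6424 to 8276 CPM in Het_PBS, with 0.02 ± 0.10. Camk2a, a calcium-dependent kinase of the same neurons, stood at 2180 to 2910 CPM in WT_PBS and 2349 to 3054 CPM in Het_PBS, with 0.02 ± 0.10. Of 18 striatal genes 10 lay above 0 (median 0.01). An unadjusted p under 0.05 belonged to 3 on the higher side and 1 on the lower (22.2%, beside 7.5% over all genes). Adora2a, the adenosine receptor of indirect-pathway neurons, had -0.76 ± 0.27 (SE, adjusted p = 0.524), and -0.50 without WT_PBS 4. Tac1, the substance P precursor of direct-pathway neurons, stood at 30.4, 38.2, 23.96, 38.4 and 49.7 CPM in WT_PBS 1 to 5 and 34.6, 52.2, 53.1, 49.97 and 72.3 CPM in Het_PBS 1 to 5, with 0.52 ± 0.18 (SE, adjusted p = 0.524). WT_PBS 2, WT_PBS 4 and WT_PBS 5 lay within the heterozygous range. Scn4b had 0.55 ± 0.23 and Adcy5 0.38 ± 0.17. Thalamic and midbrain genes had 3 of 11 above 0 (median -0.09), olfactory bulb genes 4 of 11 (median -0.09), and neuropeptide genes of the hypothalamus and interneurons 9 of 13 (median 0.18). The thalamic median was -0.01 without Het_PBS 2 and -0.21 without Het_PBS 1. The olfactory median was -0.19 without WT_PBS 2 and 0.00 without Het_PBS 5. The neuropeptide median was 0.01 without WT_PBS 3, 0.04 without Het_PBS 3 and -0.06 without Het_PBS 1 and 3. Pmch and Hcrt, peptides of the lateral hypothalamus, ranged from 0.578 to 45.7 CPM and from 0 to 31.7 CPM over the 10 libraries.

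Synaptic genes were among the most tightly bounded. All 22 tested genes of the presynaptic vesicle were bounded within 1.5-fold, with 13 above 0 (median 0.02). Sv2b and Sncb had unadjusted p-values under 0.05, at -0.27 ± 0.12 (SE, adjusted p = 0.608) and -0.24 ± 0.11 (SE, adjusted p = 0.64); the latter was -0.16 without Het_PBS 5. Of 30 postsynaptic genes 25 were bounded within 1.5-fold and 10 lay above 0 (median -0.05). On the lower side 3 had an unadjusted p under 0.05 (10%, close to 7.5% over all genes). Dlg4, the PSD-95 scaffold, stood at 591, 629, 493, 657 and 522 CPM in WT_PBS 1 to 5 and 614, 534, 375, 485 and 371 CPM in Het_PBS 1 to 5, with -0.28 ± 0.12 (SE, adjusted p = 0.608); Het_PBS 1 and 2 lay within the wild-type range. Grm4, a glutamate receptor of granule cells, had -0.42 ± 0.15 (SE, adjusted p = 0.524) and -0.19 without WT_PBS 3, and Grm2 -0.74 ± 0.34 (SE, adjusted p = 0.64). Immediate early genes, which follow neuronal activity, had 4 of 14 above 0 (median -0.16). WT_PBS 3 alone stood high in them, and the median was -0.02 without it. Egr1 had -0.43 ± 0.18 (SE, adjusted p = 0.599), -0.24 without WT_PBS 3. Circadian genes had 5 of 19 above 0 (median -0.10), with no unadjusted p under 0.05.

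**Figure D5:**
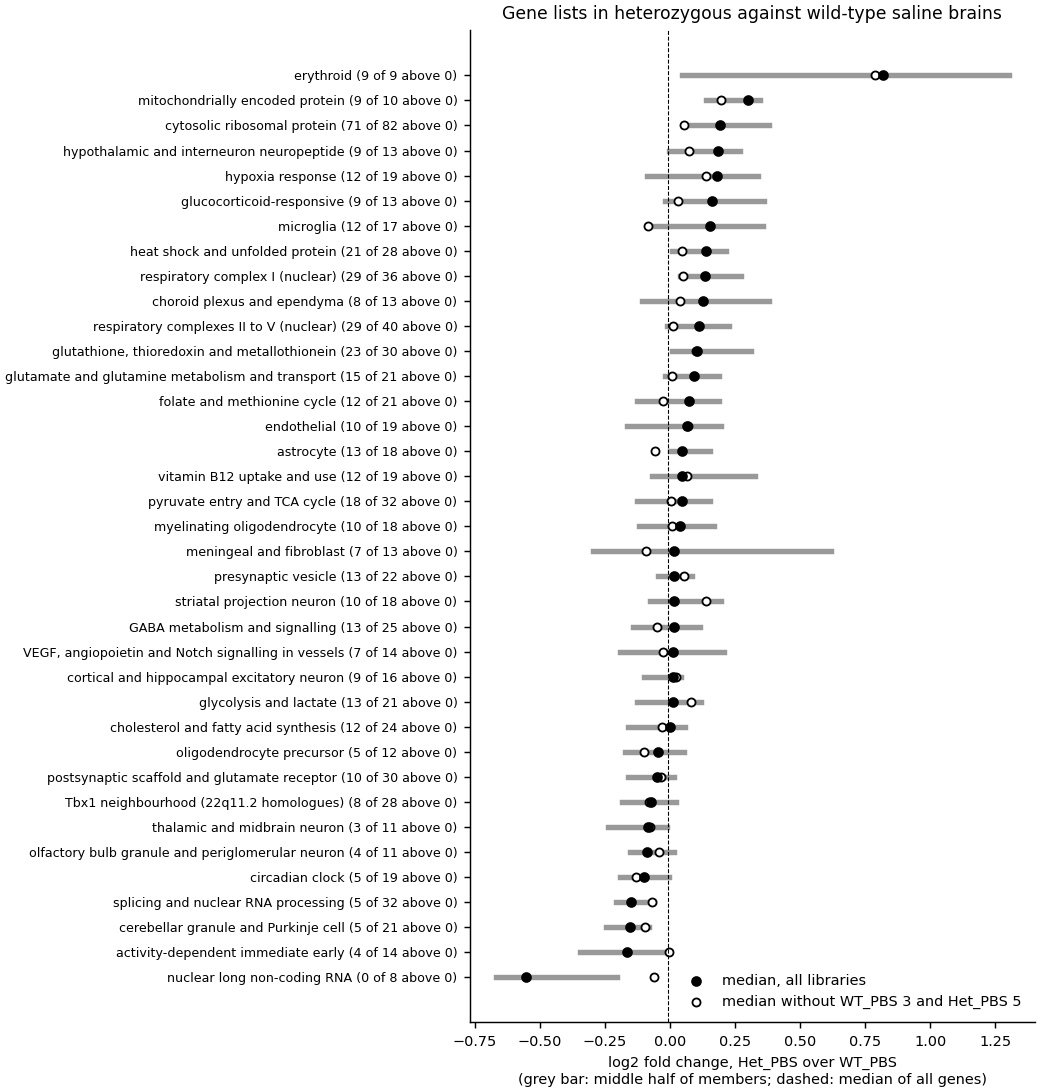
Median log2 fold change, Het_PBS over WT_PBS, of each list with at least 8 tested genes (horizontal axis; filled points use all libraries, open points leave out WT_PBS 3 and Het_PBS 5, grey bars span the members' interquartile range and the dashed line is the median of all genes). Erythroid, mitochondrially encoded and ribosomal genes stand highest and nuclear long non-coding RNA lowest; the last moves from -0.55 to -0.06 when the pair is left out.

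Vascular genes, the cells in which Tbx1 is known to act in brain, were measured with little depth. Of 22 endothelial markers 19 were tested, 10 above 0 (median 0.07), with no unadjusted p under 0.05; 14 were bounded within 2-fold and only 3 within 1.5-fold. The median was -0.06 without Het_PBS 2 and 0.13 without Het_PBS 3. Their summed level was 423 to 500.4 CPM in WT_PBS and 409 to 525 CPM in Het_PBS. Flt1, a VEGF receptor, stood at 13.8 to 22.8 CPM in WT_PBS and 18.6 to 40.1 CPM in Het_PBS, with 0.33 ± 0.21 (SE, adjusted p = 0.761). Slco1c1, a thyroid hormone carrier of the blood-brain barrier, had -0.40 ± 0.23 (SE, adjusted p = 0.721). The adhesion molecule Pecam1, at 0.836 to 10.99 CPM in WT_PBS and 0 to 6.04 CPM in Het_PBS, had -0.89 ± 0.60. Bsg, the most abundant of the list, had 0.09 ± 0.11. Only 6 of 13 pericyte and smooth muscle genes were tested, with 3 above 0 (median 0.02).

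Of 27 genes of VEGF, angiopoietin and Notch signalling in vessels 14 were tested, 7 of them above 0 (median 0.01). Among ligands Vegfa had -0.13 ± 0.22, Vegfb 0.27 ± 0.14 (SE, adjusted p = 0.66), Pgf -0.39 ± 0.43, Angpt1 0.15 ± 0.26 and Apln 0.29 ± 0.23. Jag2, a Notch ligand, had the only unadjusted p under 0.05, at 8.62, 6.36, 12.9, 5.004 and 7.1 CPM in WT_PBS 1 to 5 and 8.42, 3.58, 2.59, 4.54 and 2.99 CPM in Het_PBS 1 to 5 and -0.83 ± 0.39 (SE, adjusted p = 0.64). Of the receptors Kdr had 0.21 ± 0.34, Nrp2 0.21 ± 0.20 and Notch1 -0.52 ± 0.27 (SE, adjusted p = 0.669). The Notch targets Hey1 and Heyl had 0.03 ± 0.20 and -0.22 ± 0.48, and Efnb2, an arterial ephrin, -0.11 ± 0.25.

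Meningeal and fibroblast genes went both ways: 7 of 13 lay above 0 (median 0.02). Col1a1, the main fibrillar collagen, stood at 41.9, 31.2, 10.5, 48.8 and 20.5 CPM in WT_PBS 1 to 5 and 26.2, 14.7, 9.49, 16.5 and 5.38 CPM in Het_PBS 1 to 5, with -1.08 ± 0.32 (SE, adjusted p = 0.473). Mgp, a matrix inhibitor of calcification, stood at 26.3, 32.97, 36.8, 28.8 and 44.7 CPM in WT_PBS 1 to 5 and 43.5, 63.7, 47.9, 46.7 and 82.5 CPM in Het_PBS 1 to 5, with 0.74 ± 0.21 (SE, adjusted p = 0.473). Col3a1 had 1.02 ± 0.50 (SE, adjusted p = 0.66) at levels of 0.584 to 6.25 CPM in WT_PBS and 3.45 to 8.89 CPM in Het_PBS, and 1.54 without WT_PBS 4. Col1a1 overlapped widely between groups, whereas for Mgp only WT_PBS 5 reached the heterozygous range. Of 13 choroid plexus and ependymal genes 8 lay above 0 (median 0.13). Without Het_PBS 3, 7 of 13 did, and the median was 0.01. Ttr, the carrier of thyroid hormone and retinol made by the choroid plexus, stood at 724, 1381, 949, 1342 and 1159 CPM in WT_PBS 1 to 5 and 1522, 1441, 1787, 1265 and 1203 CPM in Het_PBS 1 to 5, with 0.38 ± 0.14 (SE, adjusted p = 0.569).

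Glial lists lay near 0 or moved with the pair of libraries that stood apart. Of 18 astrocyte genes 13 lay above 0 (median 0.05), and all 18 were bounded within 1.5-fold; without WT_PBS 3 and Het_PBS 5, 8 of 18 lay above 0 (median -0.06). Fgfr3, a growth factor receptor of astrocytes, separated the groups, at 84.2, 85.6, 69.5, 86.7 and 80.6 CPM in WT_PBS 1 to 5 and 93.1, 87.6, 109, 92.9 and 104 CPM in Het_PBS 1 to 5, with 0.26 ± 0.12 (SE, adjusted p = 0.64). Of 17 microglial genes 12 lay above 0 (median 0.15), 4 of them with an unadjusted p under 0.05 (23.5%, beside 7.5% over all genes). The 4 were Tyrobp, the complement genes C1qc (0.59 ± 0.20 SE, adjusted p = 0.524) and C1qb (0.41 ± 0.16 SE, adjusted p = 0.574), and Ctss, a lysosomal protease (0.36 ± 0.15 SE, adjusted p = 0.608). Without Het_PBS 5 the value of Ctss was 0.19. Cx3cr1, the fractalkine receptor, had -0.07 ± 0.12, and Csf1r, the survival receptor, -0.22 ± 0.14. Without WT_PBS 3 and Het_PBS 5 the microglial median was -0.08, with 8 of 17 above 0. Myelin genes had 10 of 18 above 0 (median 0.04), with Mbp, of the myelin sheath, at 0.26 ± 0.16, and oligodendrocyte precursor genes 5 of 12 (median -0.05).

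Transmitter metabolism showed few differences. Of 21 genes for glutamate and glutamine 15 lay above 0 (median 0.09, 0.04 without Het_PBS 5 and 0.06 without Het_PBS 3). Glul, glutamine synthetase of astrocytes, stood at 1465, 1884, 1194, 1160 and 1546 CPM in WT_PBS 1 to 5 and 1599, 1606, 1886, 1863 and 2589 CPM in Het_PBS 1 to 5, with 0.40 ± 0.12 (SE, adjusted p = 0.524); without Het_PBS 5, its highest library, it was 0.26. Slc38a1, a glutamine carrier, had 0.33 ± 0.13 (SE, adjusted p = 0.577). Slc1a2, the main astrocytic glutamate transporter, had 0.01 ± 0.10, and Slc17a7, the vesicular transporter, -0.20 ± 0.12. Of 25 genes for GABA 13 lay above 0 (median 0.01) and 20 were bounded within 1.5-fold. Gabbr2, a subunit of the GABA-B receptor, stood at 264, 276, 228, 317 and 259.9 CPM in WT_PBS 1 to 5 and 323, 329, 318, 351 and 299.5 CPM in Het_PBS 1 to 5, with 0.27 ± 0.11 (SE, adjusted p = 0.577); only WT_PBS 4 reached the heterozygous range. Slc32a1, the vesicular GABA transporter, had 0.27 ± 0.12 (SE, adjusted p = 0.608), and Gabra5, a receptor subunit, 0.34 ± 0.17 (SE, adjusted p = 0.66).

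Vitamin B12 serves methionine synthase and methylmalonyl-CoA mutase. Of 19 tested genes for its uptake and use 12 lay above 0 (median 0.05). An unadjusted p under 0.05 belonged to 3 on the higher side and 1 on the lower (21.05%, beside 7.5% over all genes). Thap11, a transcription factor that acts with Hcfc1 on the B12 processing gene Mmachc, separated the groups, at 15.6, 22.6, 6.43, 18.8 and 18.8 CPM in WT_PBS 1 to 5 and 28.5, 24.3, 34.5, 23.1 and 38.9 CPM in Het_PBS 1 to 5, with 0.84 ± 0.23 (SE, adjusted p = 0.473). Hcfc1 had 0.05 ± 0.16 and Mmachc 0.06 ± 0.37. Pccb, a subunit of propionyl-CoA carboxylase, had 0.49 ± 0.19 (SE, adjusted p = 0.578), and Mut, the mutase, 0.38 ± 0.19 (SE, adjusted p = 0.659), which was 0.23 without Het_PBS 5. Tcn2, the plasma carrier transcobalamin, stood at 9.44, 9.83, 8.18, 15.8 and 15.04 CPM in WT_PBS 1 to 5 and 6.08, 9.56, 5.18, 7.02 and 9.57 CPM in Het_PBS 1 to 5, with -0.66 ± 0.31 (SE, adjusted p = 0.64). Its receptor Cd320 had 0.03 ± 0.26, Mtr, methionine synthase, 0.02 ± 0.28, its reductase Mtrr 0.05 ± 0.33, and Lmbrd1, a lysosomal exporter of the vitamin, -0.01 ± 0.11. In the folate and methionine cycle 12 of 21 genes lay above 0 (median 0.07), with no unadjusted p under 0.05; Mat2a, which makes S-adenosylmethionine, had -0.22 ± 0.12 (SE, adjusted p = 0.69).

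Central carbon metabolism lay close to the median of all genes. Glycolytic genes had 13 of 21 above 0 (median 0.01), with Aldoa at 0.01 ± 0.10 and Aldoc at 0.23 ± 0.12. Gapdh had 0.58 ± 0.23 (SE, adjusted p = 0.589), 0.88 without WT_PBS 2; its many processed copies make the count uncertain. Genes of pyruvate entry and the TCA cycle had 18 of 32 above 0 (median 0.05). Cs, citrate synthase, separated the groups, at 52.1, 49.7, 48.5, 42.5 and 39.3 CPM in WT_PBS 1 to 5 and 57.1, 56.1, 65.2, 61.5 and 69.95 CPM in Het_PBS 1 to 5, with 0.42 ± 0.17 (SE, adjusted p = 0.583). Slc25a12, the aspartate-glutamate carrier, had 0.37 ± 0.14 (SE, adjusted p = 0.574), and Pdk2, a kinase that restrains pyruvate dehydrogenase, -0.32 ± 0.16 (SE, adjusted p = 0.648), which was -0.16 without WT_PBS 5. Sterol and fatty acid synthesis had 12 of 24 above 0 (median 0.00), with Elovl5, a fatty acid elongase, at 0.40 ± 0.16 (SE, adjusted p = 0.577).

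Stress-related lists had small positive medians that moved with the libraries in the fit. They share members: Mt1 is in the hypoxia and metallothionein lists, and Ddit4 in the hypoxia and glucocorticoid lists. Mt2 is in the metallothionein and glucocorticoid lists, so the lists are not separate observations. Of 19 hypoxia response genes 12 lay above 0 (median 0.18), 5 with an unadjusted p under 0.05 (26.3%, beside 7.5% over all genes). The median was 0.09 without Het_PBS 1, 0.12 without Het_PBS 3 and 0.08 without both. Egln1, the oxygen-sensing prolyl hydroxylase, stood at 39.01, 50.9, 31.6, 35.03 and 38.4 CPM in WT_PBS 1 to 5 and 56.1, 48.97, 57.4, 45.8 and 68.2 CPM in Het_PBS 1 to 5, with 0.50 ± 0.15 (SE, adjusted p = 0.515), and Vhl, which marks HIF for degradation, had 0.40 ± 0.16 (SE, adjusted p = 0.578). For Egln1 only WT_PBS 2 overlapped the heterozygotes. Vegfa, a target of HIF, had -0.13 ± 0.22. Of 30 genes for glutathione, thioredoxin and metallothioneins 23 lay above 0 (median 0.10), and the median was 0.05 without Het_PBS 3. Mt1 had 0.35 ± 0.12 (SE, adjusted p = 0.524) and Gstm1, a glutathione transferase, 0.35 ± 0.12 (SE, adjusted p = 0.524). Gpx3, an extracellular glutathione peroxidase, had 0.62 ± 0.27 (SE, adjusted p = 0.608), 0.24 without Het_PBS 3. Heat shock genes had 21 of 28 above 0 (median 0.14, and 0.05 without WT_PBS 3 and Het_PBS 5), with Cryab, a small chaperone, at 0.41 ± 0.16 (SE, adjusted p = 0.578) and the abundant Hsp90ab1 at -0.05 ± 0.10. Glucocorticoid-responsive genes had 9 of 13 above 0 (median 0.16), but the median was -0.02 without Het_PBS 5 and -0.07 with 1 surrogate variable. Of this list Ddit4, an inhibitor of mTORC1, had 0.40 ± 0.18 (SE, adjusted p = 0.608), and 0.61 without WT_PBS 3.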

How the data were processed

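RNA from 15 brain samples was sequenced with QuantSeq 3′ libraries of polyadenylated RNA, per the labels' protocols. The deposited values were whole read counts per gene, which the authors made with STAR, HTSeq and the mm10 genome; edgeR is also named, per the submitters' processing notes, with versions and strand setting not given in the sources used here. Of 30386 Ensembl identifiers 9918 had no read and 30348 (99.87%) matched GENCODE annotation of GRCm38.

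Genes were filtered with filterByExpr, scaled by TMM and tested with edgeR 4.0.16 (quasi-likelihood F test, R 4.3.3) on all 15 libraries, Het_PBS against WT_PBS, with Benjamini-Hochberg adjustment at 0.05. CPM values are TMM-normalised. The pipeline was tested on simulated counts, drawn independently for each gene and library, where 3.19% of calls were false. That share describes the simulated counts only. Named genes were Tbx1, the 15 smallest p-values a side at a mean of at least 5 CPM, the 10 largest fold changes a side at an unadjusted p under 0.05 and at least 10 CPM, and up to 4 members with the smallest p and 2 with the highest level of each list. The members and the 40 lists were chosen with earlier results of these data known. Alternatives were DESeq2 1.42.0 and its size factors, limma 3.58.1 (voom), sva 3.50.0, other count filters, a replicate block, a length offset, Gm42418 and mitochondrial genes left out, the 10 saline libraries alone, and libraries left out singly or in pairs. No 2 libraries of a group agreed within sampling noise (chi-square per degree of freedom of 4.09 or more). Values of a few single genes that the rule names are not reported here, although they stay in the counts of their lists.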

Additional observations from a re-analysis of the deposited data

Results flagged for a closer look

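Within each group of 5, the highest or lowest library was set against its nearest neighbour, for 6 library measures and each gene given a value in the report. Chance alone marks about 1 in 20 groups, and 25 of 322 groups were marked.

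WT_PBS 3 stood apart from the other wild types in the most genes. It was the highest for Malat1 (10110 CPM), Meg3 (11650 CPM), Snhg11 (2844 CPM), Miat (138.5 CPM) and Mirg (61.9 CPM), all nuclear long non-coding RNA, and for Pnisr (551 CPM), Clk1 (87.1 CPM) and Grm4 (190.5 CPM). It was the lowest for Eif4a2 (92.9 CPM) and for Aldoc, an aldolase of astrocytes and Purkinje cells (997 CPM).

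Het_PBS 5 was the highest heterozygote for Glul (2589 CPM), Ndufb3 (365 CPM), Flt1 (40.1 CPM) and S100a8 (44.2 CPM), and the lowest for Hinfp (4.78 CPM). Het_PBS 3 stood apart with 28 reads of Xist and was the highest for Miat (46.6 CPM) and Gpx3 (63.0 CPM). Het_PBS 1 was apart for Rplp1 (1847 CPM) and Vegfb (76.3 CPM).

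Among the other wild types, WT_PBS 2 had 9.58% of its counts from mitochondrial genes and 43.4 CPM of Slco1c1, both the highest of the group. WT_PBS 4 was the lowest for Ssu72 (40.9 CPM) and stood apart for Trmt2a (7.51 CPM). WT_PBS 5 was the highest for Alas2 (15.9 CPM).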

How the results depend on the processing

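At an adjusted p under 0.05 the count of genes was 0 in edgeR with all libraries and also with DESeq2 size factors, DESeq2, limma-voom, the 10 saline libraries alone, a mean count of at least 50, a length offset, and without Gm42418 and mitochondrial genes. It was 40 with no filter (20468 genes tested), 2 with 1 surrogate variable and 1 without WT_PBS 3 and Het_PBS 5; the cause was not tested. Leaving out single libraries gave 0 to 14 calls: 14 without WT_PBS 2, 5 without Het_PBS 2, and 2 without Het_PBS 4 or Het_PBS 5. The adjusted p of these fits does not allow for the choice of library. The genes with an unadjusted p under 0.05 numbered 1584 with no filter and 560 at a mean count of at least 50, where 6388 genes were tested, and 708 to 1212 with single libraries left out. Same-numbered libraries correlated at -0.071 to 0.069 and share only a number; with the number as a replicate block the test gave 0 calls, a smallest adjusted p of 0.251, and 846 genes at an unadjusted p under 0.05. No gene named by p or size changed direction under the alternatives run, whereas Miat and Snhg11, given with the nuclear RNA list, did. Genes named by p or size were chosen from these same libraries, so a kept direction is little evidence. Their sizes could fall far. Hba-a1 went from 1.33 to 0.22 without Het_PBS 1 and Het_PBS 3, and S100a8 from 1.14 to 0.15 without WT_PBS 3 and Het_PBS 5. Depth limited weakly expressed genes, of which few were bounded within 2-fold below 5 CPM.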
